A study of Bos taurus with 12 samples.

Results

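The miRNAs described here are 7 mature bovine miRNAs with known roles in granulosa or luteal cells: bta-miR-21-5p, bta-miR-378, bta-miR-224, bta-miR-132, bta-miR-212, bta-miR-202 and bta-miR-383. They were chosen by name from the 783 miRNAs listed in the table of plasma extracellular vesicle (EV) miRNAs. EVs are membrane-bound particles that cells release into body fluids and that carry RNA. The table held 12 small RNA libraries from the blood plasma of 6 crossbred beef heifers (cattle that have not yet calved), and all 6 had been synchronized with a progesterone device, gonadotrophin-releasing hormone (GnRH) and prostaglandin before the first of the cycles sampled. Plasma was taken from every heifer on Day 7 of an unstimulated (U) cycle, in which no follicle-stimulating hormone (FSH) was given. It was taken again on Day 7 of a superstimulated (S) cycle, in which decreasing doses of FSH, with prostaglandin late in the FSH course, were given to induce many ovulations and the heifers were then inseminated. The heifers had been selected from a larger group for a high (H) or low (L) ovulatory response, counted as corpora lutea at slaughter in the S cycle. The 4 groups are named by cycle and response (UL, UH, SL and SH), with 3 libraries from 3 heifers each. The S samples therefore differ from the U samples in FSH and the prostaglandin given with it, in insemination, in the time since synchronization and in the order of the cycles, and these cannot be told apart.

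A miRNA is a short RNA that pairs with messenger RNAs, mainly through bases 2 to 8 from its 5′ end (the seed), and lowers their translation or stability. In the ovary, the granulosa cells of a growing follicle make estradiol under FSH, and after ovulation they turn into the luteal cells that make progesterone. miR-21 is induced in granulosa cells by the ovulatory surge of luteinizing hormone (LH) and keeps them from dying, and miR-132 and miR-212 are induced by the same surge through cyclic AMP. miR-224 is induced in granulosa cells by transforming growth factor β and acts on proliferation and estradiol release. miR-378 lowers aromatase, the enzyme that makes estradiol, and miR-383 acts on granulosa cell steroid production. miR-202 is known for its high level in gonads. Of these, at least miR-21 and miR-378 are also made in many other tissues, so their level in plasma has no single source. The plasma libraries do not show the source of the other members either. In bulk plasma, fewer vesicles from a tissue and less of a miRNA in each vesicle cannot be told apart.

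The mature sequences below are shown because a read was assigned by its sequence alone, so that near-identical miRNAs decide what a count can mean. They are printed 5′ to 3′ as DNA letters from the deposited table, with the seed in capitals.
bta-miR-21-5p: tAGCTTATcagactgatgttgact
bta-miR-378: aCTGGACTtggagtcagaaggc
bta-miR-378c: aCTGGACTtggagtcagaagt
bta-miR-378b: aCTTGACTtggagtcagaaggc
bta-miR-224: cAAGTCACtagtggttccgttta
bta-miR-132: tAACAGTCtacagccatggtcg
bta-miR-212: aCCTTGGCtctagactgcttact
bta-miR-202: tTCCTATGcatatacttcttt
bta-miR-383: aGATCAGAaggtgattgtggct

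The 7 miRNAs have 7 different seeds. bta-miR-378 is the only member whose seed is also found in another listed miRNA, bta-miR-378c. The listed bta-miR-378c differs from bta-miR-378 over its length by 1 substitution, G21T, counted from 1 at the 5′ end with the base of bta-miR-378 first. bta-miR-378b differs by G4T, which lies in the seed. These relatives were rare beside the 125 reads of bta-miR-378: bta-miR-378c had 7 reads in 5 libraries and bta-miR-378b had 1 read. No listed miRNA came within 3 substitutions of any of the other members, so a mixture with near-identical copies among the listed miRNAs is limited to bta-miR-378. The bta-miR-212 entry does not have the seed of bta-miR-132, although both come from the same gene cluster. Its sequence is the arm that human and mouse naming calls miR-212-5p, and no other listed miRNA has the seed of bta-miR-132. In the RefSeq gene table (assembly ARS-UCD2.0, used only for names and neighbours), MIR132 and MIR212 lay within 10 kb of each other. MIR224 lay near MIR452 and MIR3431, inside the GABA receptor subunit gene GABRE. MIR378-1 lay inside PPARGC1B, which encodes a transcriptional coactivator of mitochondrial metabolism.

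Levels are given as reads and as normalized reads, which are reads scaled to the mean depth of the 12 libraries with TMM factors. The libraries held 21466 (SH2) to 77433 (SH3) reads of known miRNAs, with a median of 41190, so that 3 reads stood for 6.08 normalized reads in SH2 and for 1.82 in SH3. Of the libraries, 2 stood apart in markers of other sources. Of the red blood cell miRNAs miR-451, miR-486 and miR-144, all 3 detected, the summed level was 8438 normalized reads in SH3 and 991 to 2782 in the other 11 libraries. This was miR-486 alone, at 8394 normalized reads in SH3 and 984 to 2738 in the others. SH3 lay inside the range of the other libraries for miR-451 (43.8, others 7.43 to 45.6) and for miR-144 (0.608, others 0 to 7.44). The summed level of the muscle miRNAs miR-1, miR-133a and miR-206, all 3 detected, was 1717 normalized reads in UL1 and 38.1 to 164 in the other 11 libraries, and UL1 was highest for each of the 3. Leukocyte markers (4 of 4 detected) ranged from 1552 to 3461 normalized reads, endothelial markers (2 of 2) from 1702 to 11988 and the liver marker miR-122 from 48.7 to 647. The gonad markers miR-202 and miR-383 are themselves members and are described next.

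Of the 7 miRNAs, 4 had at least 1 read and 3 had none in any of the 12 libraries. bta-miR-202, bta-miR-383 and bta-miR-212 were at 0 of 534136 known miRNA reads, which allows a level of up to 5.62 reads per 1000000 over all libraries. In single libraries, the level that a count of 0 allows was between 38.7 (SH3) and 139.8 (SH2) reads per 1000000. A count of 0 does not exclude a lower level at this depth, in the superstimulated libraries as in the others. A count of 0 was common in this table, since 447 of the 783 listed miRNAs (57.1%) had no read in any library. These limits, like the Poisson intervals given with single counts, cover counting error only.

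A miRNA was taken as detected in a group if 2 or more of its 3 libraries held a read. By this rule 4 members were detected in each L group (UL and SL) and 3 in each H group (UH and SH). Of all 783 listed miRNAs, 25.7% were detected in UL and 26.1% in UH, and 23.2% in SL and 21.8% in SH. The member that made the difference between L and H groups was bta-miR-132, on 5 reads in all. bta-miR-21-5p, bta-miR-378 and bta-miR-224 had a read in all 12 libraries, which held for 119 of the listed miRNAs.

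**Figure D1:**
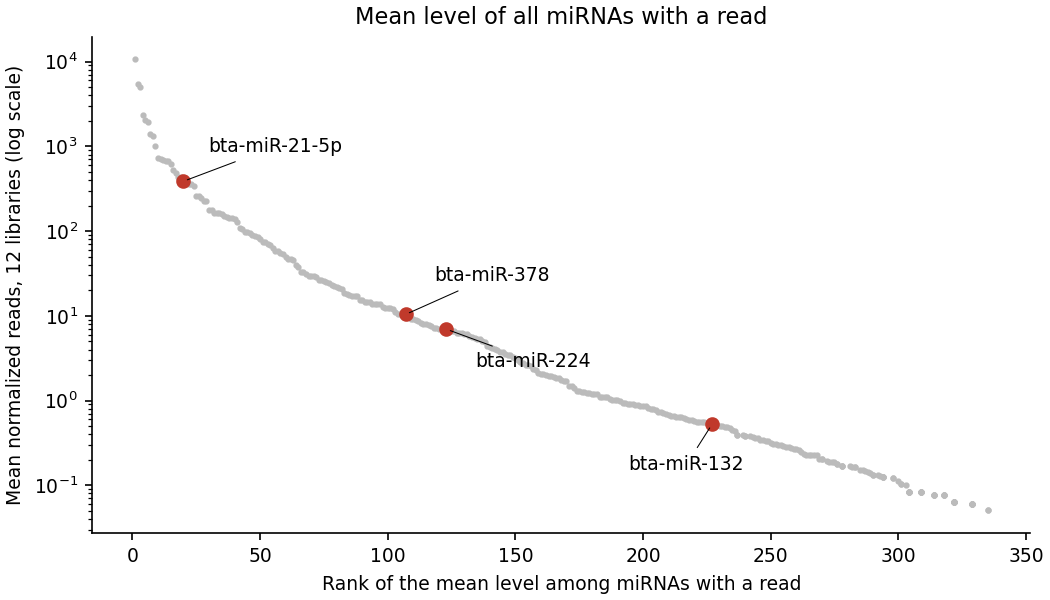
Mean normalized reads over 12 libraries (log scale) of the 336 miRNAs with at least 1 read, ordered by rank. The 4 detected members are marked in red at ranks 20 (bta-miR-21-5p), 107 (bta-miR-378), 123 (bta-miR-224) and 227 (bta-miR-132), and the 3 members at 0 are not drawn.

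bta-miR-21-5p was the most abundant member, with 4602 reads in all, or 0.862% of all known miRNA reads. By its mean level it ranked 20 among the 336 miRNAs with a read, and its rank in single libraries was between 13 and 29. The other arm of its hairpin, bta-miR-21-3p, had 6 reads in 4 libraries. bta-miR-378 followed with 125 reads (0.0234% of known reads, rank 107) and bta-miR-224 with 96 reads (0.0180%, rank 123). bta-miR-452, which lies beside the miR-224 gene, had 3 reads in 3 libraries. bta-miR-3431, the other miRNA gene near it, had a read in all 12 libraries, 135 in sum, and was added here after its values were seen. Its highest count was 33 in SH3, of 77433 known reads, and it had 18 in SL1, of 32160. Relative to depth, SH3 was thus not its highest library. bta-miR-132 had 5 reads.

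**Figure D2:**
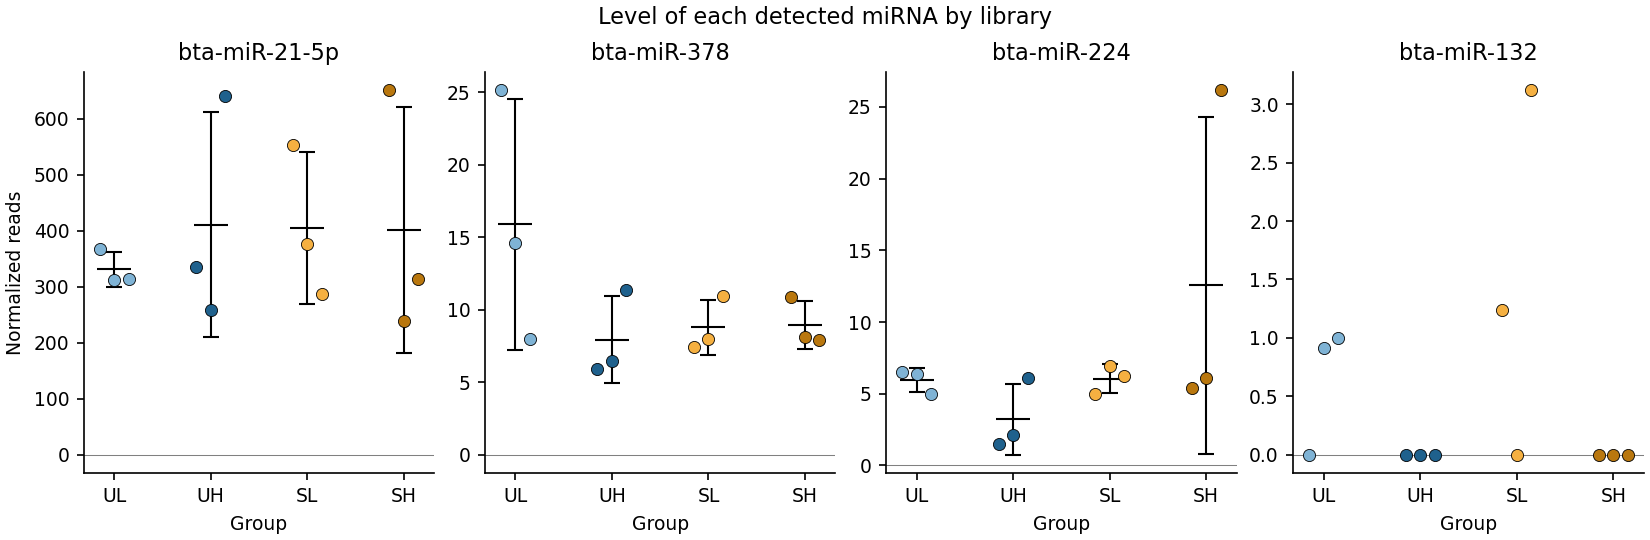
Normalized reads of the 4 detected members in each of the 12 libraries, by group, with replicates 1 to 3 from left to right. Points are libraries, and bars give the group mean ± SD (n = 3), except for bta-miR-132, where no mean is drawn because no library exceeded 2 reads. Groups overlap for bta-miR-21-5p, bta-miR-378 and bta-miR-224, with SH3 highest in bta-miR-224 (26.1) and UL1 highest in bta-miR-378 (25.1).

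bta-miR-21-5p varied between heifers within 3 of the 4 groups. In UL, libraries 1 to 3 had 367, 312 and 314 normalized reads. In UH they had 335, 258 and 640. In SL they had 553, 376 and 287, and in SH 650, 239 and 313. The highest libraries were SH1 and UH3, the lowest was SH2, and every pair of groups overlapped. The mean was lowest in UL with 331.0 ± 31.5 (SD, n = 3). It was 400.9 ± 219.2 in SH, 405.1 ± 135.3 in SL and 411.0 ± 201.7 in UH, and no neighbours in this order differed beyond their spread. The spread was far larger than counting error: the variance of its reads within groups was 63.1 times that expected from counting alone, close to the median of 59.0 among the 19 miRNAs of like level. The within-group SD on the log2 scale was 0.56, and 0.46 was the median of those 19.

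bta-miR-378 was at 25.1, 14.6 and 7.98 normalized reads in UL, from 27, 16 and 8 reads. In UH it was at 5.93, 6.46 and 11.4, in SL at 7.43, 7.95 and 10.9, and in SH at 10.8, 8.11 and 7.90, from 4 to 15 reads in each of these 9 libraries. The UL1 and UL2 libraries were highest, and the third UL library lay inside the range of every other group. The mean was 7.92 ± 3.01 (SD, n = 3) in UH, 8.77 ± 1.88 in SL, 8.95 ± 1.64 in SH and 15.9 ± 8.64 in UL, and again no neighbours in this order differed beyond their spread. Within groups the variance of the reads was 1.67 times that of counting alone, against a median of 2.53 among 37 miRNAs of like level with a read in every library. UL1, the highest library for bta-miR-378, was also the library with the high muscle markers named above, and their part in this level was not tested.

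bta-miR-224 was at 6.51, 6.38 and 4.99 normalized reads in UL, and at 1.48, 2.15 and 6.07 in UH. It was at 4.96, 6.96 and 6.24 in SL, and at 5.42, 6.08 and 26.1 in SH. The first 2 UH libraries were lowest, on 1 and 3 reads, and SH3 stood above all others on 43 reads. The 95% Poisson interval of SH3 was 18.9 to 35.2 normalized reads, whereas the intervals of the other SH libraries were 1.48 to 13.9 (SH1) and 1.25 to 17.8 (SH2). From lowest to highest mean, the groups were UH with 3.24 ± 2.48 (SD, n = 3), UL with 5.96 ± 0.845, SL with 6.05 ± 1.01 and SH with 12.5 ± 11.8, with overlapping libraries between all neighbours. Within groups the variance of its reads was 2.68 times that of counting alone, against a median of 1.77 among 25 miRNAs of like level with a read in every library. The within-group SD on the log2 scale was 0.72, below the median of 0.93 among all 51 miRNAs of like level. SH3 was also the library with the high miR-486, whereas its miR-451 and miR-144 lay inside the range of the other libraries. The part of red blood cells in its bta-miR-224 level was not tested.

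bta-miR-132, which LH induces in granulosa cells, was at the limit of detection throughout. It had 0, 1 and 1 reads in UL, 1, 0 and 2 reads in SL, and 0 reads in every UH and SH library. All 5 reads thus came from L heifers, in 4 of 6 libraries with 239899 known reads in sum, and none from the 6 H libraries with 294237. At 5 reads this is not read as a difference between H and L heifers. The share of other miRNAs with as few reads that had them in only 1 response group was not counted. Since no library had more than 3 reads, no fold is given. Fitted with limma, the differences between H and L libraries did not pass the test in the U cycle (adjusted P = 0.930) or in the S cycle (adjusted P = 0.667).

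To ask whether any member differed with ovulatory response or with superstimulation, limma was fitted to log2(normalized reads + 1) over all miRNAs detected in a group of each comparison. Calls required a log2 fold change of 1 or more in size together with an unadjusted P no higher than 0.05, and adjusted P values are Benjamini-Hochberg values over all miRNAs tested. The fits between cycles did not use the pairing of U and S libraries by heifer. Fits that did are given at the end as the replicate block. No member was called in any of the 6 comparisons, and no member had an unadjusted P of 0.05 or less in them. In UH vs. UL, 0 of 4 members tested were called, beside 2.64% of the 227 miRNAs tested. In SH vs. SL this was 0 of 4 beside 5.47% of 201, and in SH vs. UH 0 of 3 beside 5.66% of 212. In SL vs. UL it was 0 of 4 beside 2.34% of 214. In S vs. U over all heifers, with response as a covariate, it was 0 of 4 beside 5.46% of 238, and for the interaction, the difference between H and L heifers in the change between cycles, 0 of 4 beside 5.04% of 238. At these background shares, 0 of 3 or 4 sets no member apart from the rest of the table. With limma voom in place of limma on log2 values, 1 member was called in SH vs. UH, bta-miR-224, and 0 in each of the other comparisons. In that fit of SH vs. UH, 17 of all 212 miRNAs tested were called, and 0 had an adjusted P below 0.05. The study itself, which tested with edgeR at the same thresholds, listed bta-miR-224 as lower in UH than in SH. It used the same libraries, so its listing is not separate evidence.

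**Figure D3:**
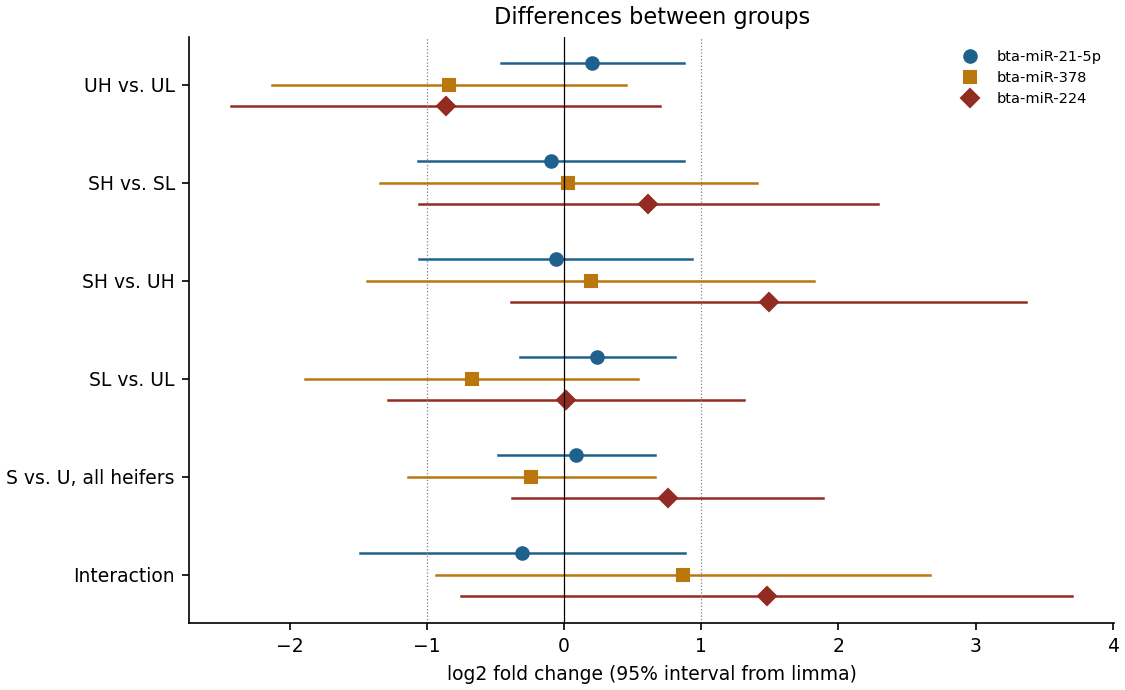
Log2 fold change, first group minus second, of bta-miR-21-5p, bta-miR-378 and bta-miR-224 in the 6 comparisons, with points for the limma estimate and lines for its 95% interval. Dotted lines mark log2 fold changes of -1 and 1. Every interval includes 0, and the one of bta-miR-224 in SH vs. UH reaches from -0.38 to 3.37.

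The comparison of high with low responders before superstimulation (UH vs. UL) asks whether a member in plasma differed after synchronization but before FSH was given. bta-miR-21-5p had a log2 fold change of 0.21 (SE 0.32, 95% interval -0.46 to 0.87, adjusted P = 0.930 by limma). bta-miR-378 had one of -0.84 (SE 0.61, interval -2.13 to 0.45) and bta-miR-224 one of -0.86 (SE 0.74, interval -2.42 to 0.70), with the same adjusted P. With each library left out in turn, bta-miR-378 ranged from -1.23 (without UL3) to -0.46 (without UL1, the library high in muscle markers), and bta-miR-224 from -1.31 (without UH3) to -0.55 (without UH1). The intervals of bta-miR-378 and bta-miR-224 reach past a 2-fold change (a log2 fold change of -1), so that such a difference was not detectable at this depth and number of heifers.

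After superstimulation (SH vs. SL), when the H heifers carried more corpora lutea, bta-miR-21-5p had a log2 fold change of -0.10 (SE 0.44, interval -1.06 to 0.87, adjusted P = 0.922 by limma). bta-miR-378 had one of 0.03 (SE 0.62, interval -1.34 to 1.41, adjusted P = 0.985). bta-miR-224 had one of 0.62 (SE 0.75, interval -1.05 to 2.29, adjusted P = 0.777). The value of bta-miR-224 was -0.05 without SH3, the library high in miR-486, and 0.99 without SH1.

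Between cycles in high responders (SH vs. UH), bta-miR-224 had a log2 fold change of 1.49 (SE 0.90, interval -0.38 to 3.37, adjusted P = 0.735 by limma), while the median over all 212 miRNAs tested was -0.14. Over the libraries left out in turn its value ranged from 0.82 (without SH3) to 1.94 (without UH3). bta-miR-21-5p had one of -0.06 (SE 0.48, interval -1.05 to 0.93, adjusted P = 0.990) and bta-miR-378 one of 0.20 (SE 0.78, interval -1.43 to 1.82, adjusted P = 0.940), the latter between 0.04 (without UH1) and 0.46 (without UH3). In low responders (SL vs. UL) the values were 0.24 for bta-miR-21-5p (SE 0.25, interval -0.32 to 0.81, adjusted P = 0.764), -0.67 for bta-miR-378 (SE 0.55, interval -1.89 to 0.54, adjusted P = 0.706) and 0.02 for bta-miR-224 (SE 0.59, interval -1.28 to 1.31, adjusted P = 0.997). The value of bta-miR-378 ranged from -1.06 (without UL3) to -0.29 (without UL1).

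The interaction asks whether H and L heifers changed unequally from the U to the S cycle. For bta-miR-224 it was 1.48 on the log2 scale (SE 1.06, interval -0.75 to 3.71, adjusted P = 0.847 by limma), from 0.81 without SH3 to 1.92 without UH3. For bta-miR-378 it was 0.87 (SE 0.86, interval -0.93 to 2.67, adjusted P = 0.899), from 0.49 without UL1 to 1.26 without UL3, and for bta-miR-21-5p -0.30 (SE 0.56, interval -1.49 to 0.88, adjusted P = 0.983). Over all heifers (S vs. U), bta-miR-21-5p had a log2 fold change of 0.09 (SE 0.27, interval -0.48 to 0.66), bta-miR-378 one of -0.24 (SE 0.43, interval -1.14 to 0.66) and bta-miR-224 one of 0.75 (SE 0.54, interval -0.38 to 1.89), with adjusted P values of 0.931, 0.886 and 0.708. With each library left out in turn, bta-miR-378 ranged from -0.36 (without UL3) to -0.0216 (without UL1) and bta-miR-224 from 0.375 (without SH3) to 0.89 (without SL1).

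**Figure D4:**
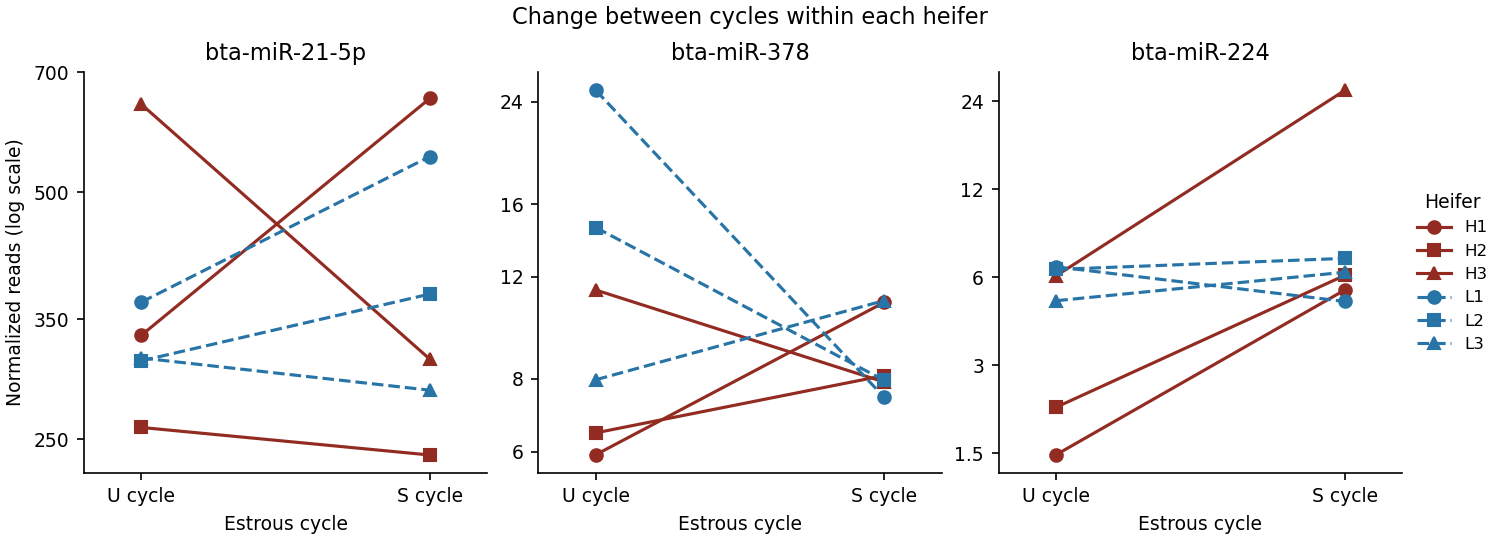
Normalized reads (log scale) in the U and the S cycle of each of the 6 heifers, for 3 members, with solid red lines for H and dashed blue lines for L heifers. Lines of bta-miR-21-5p and bta-miR-378 cross, 3 going up and 3 down, whereas all 3 H heifers go up in bta-miR-224.

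The same heifer was followed from one cycle to the next by the shared number in the library names. bta-miR-21-5p was higher in the S cycle in 3 of 6 heifers, by 1.94-fold in H1, 1.504-fold in L1 and 1.21-fold in L2, and lower in the other 3, with ratios of S to U of 0.489 in H3, 0.914 in L3 and 0.926 in H2. H1 and H3 thus moved in opposite directions. An exact sign-flip test over the 6 heifers gave P = 0.781 (two-sided). bta-miR-378 was likewise higher in 3 heifers (H1 1.83-fold, L3 1.37-fold, H2 1.26-fold) and lower in the other 3, with the lowest ratio, 0.296, in L1 (exact sign-flip P = 0.531).

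bta-miR-224 was higher in the S cycle in 5 of 6 heifers, including all 3 H heifers. The H3 heifer went from 8 to 43 reads, a ratio of 4.31 in normalized reads with a 95% counting interval of 2.001 to 10.6. H1 went from 1 to 4 reads, a ratio of 3.66 with an interval of 0.362 to 180.2. H2 had 3 reads in both cycles, so that its ratio of 2.82 (interval 0.378 to 21.1) arose in the scaling to depth. In the L heifers the ratios were 0.761, 1.09 and 1.25, on 4 to 7 reads in each library, and each interval included 1. By counting error alone, H3 was the only heifer whose interval of bta-miR-224 did not include 1. The exact sign-flip test gave P = 0.125, where 6 heifers allow no value below 0.03125. This test and the limma fits are of the same libraries and are not separate evidence.

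**Figure D5:**
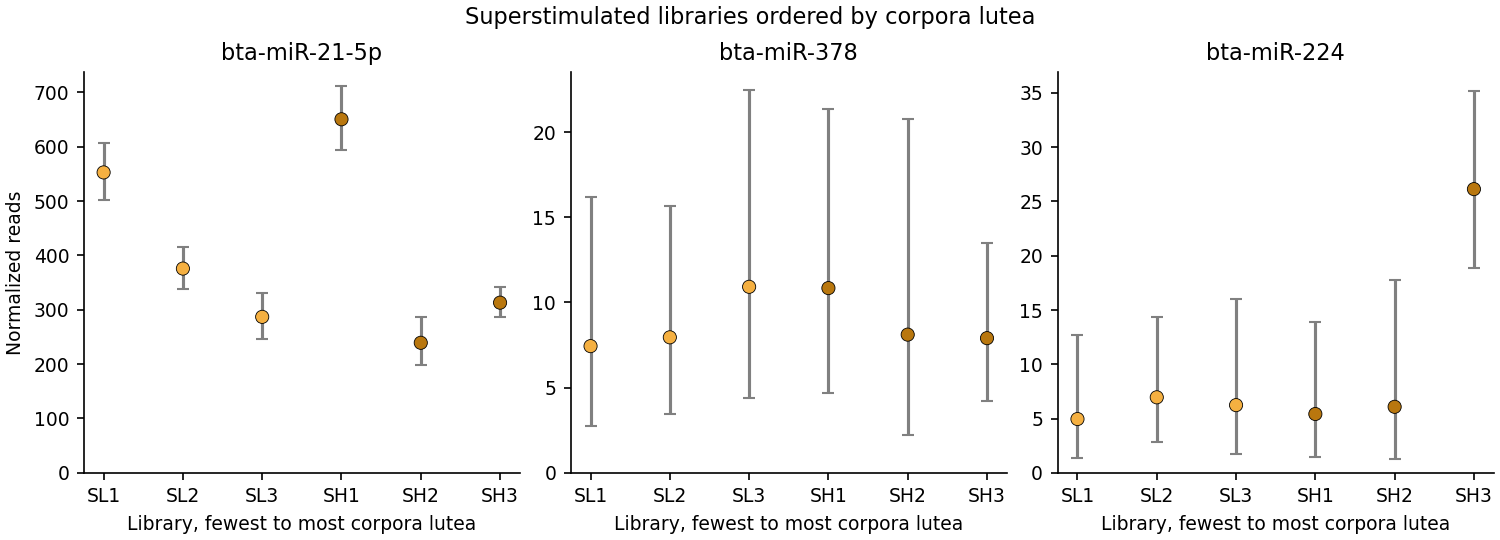
Normalized reads of 3 members in the 6 superstimulated libraries, from the heifer with the fewest corpora lutea (SL1) to the one with the most (SH3). Points are libraries, light for SL and dark for SH, and bars are 95% Poisson intervals for counting error. bta-miR-224 is flat from SL1 to SH2 and high in SH3, while bta-miR-21-5p and bta-miR-378 have no steady order.

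The superstimulated libraries were also set in the order of the corpora lutea counted in each heifer by the study, SL1, SL2, SL3, SH1, SH2 and SH3 from fewest to most. The H and L heifers were selected for this number and form separate clusters of 3, so no correlation over the 6 is given, and the relation was not tested. Along this order bta-miR-21-5p was at 553, 376, 287, 650, 239 and 313 normalized reads, with its highest and lowest values both in SH. bta-miR-378 was at 7.43, 7.95, 10.9, 10.8, 8.11 and 7.90, and its Poisson intervals overlapped throughout. bta-miR-224 was at 4.96, 6.96, 6.24, 5.42, 6.08 and 26.1, so that the heifer with the most corpora lutea was the only 1 of the 6 that stood apart. That library, SH3, was also the deepest and the one high in miR-486, and the part of either was not tested. In the U cycle, the libraries of the same heifers were at 6.51, 6.38, 4.99, 1.48, 2.15 and 6.07 in this order. Ordered by the weight of luteal tissue (SL1, SL3, SL2, SH2, SH1, SH3), SH3 was again last. bta-miR-132 had 1, 0, 2, 0, 0 and 0 reads along the corpora lutea order, and bta-miR-212, bta-miR-202 and bta-miR-383 had 0 in all 6.

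The miRNAs whose levels ran most like a member's were found by Pearson correlation of normalized log2 levels over the 12 libraries, among 103 or 104 miRNAs with a mean of at least 10 normalized reads. These are descriptions of 12 libraries from 6 heifers, which share depth and scaling. For bta-miR-21-5p they were miR-148a (r = 0.81, Spearman's rho = 0.43), let-7i (r = 0.75, rho = 0.50) and miR-199a-3p (r = 0.72, rho = 0.52). Without SH1 and UH3, the libraries farthest from the median of bta-miR-21-5p, r was 0.61, 0.49 and 0.53.

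For bta-miR-378 they were the muscle miRNA miR-1 (r = 0.66, rho = 0.24), miR-101 (r = 0.62, rho = 0.58) and the muscle miRNA miR-206 (r = 0.61, rho = 0.41). Without UL1 and UL2 the values were 0.04, 0.30 and 0.05, so the likeness to the muscle miRNAs rested on those libraries. For bta-miR-224 they were the red blood cell miRNA miR-486 (r = 0.79, rho = 0.62), miR-25 (r = 0.78, rho = 0.59) and miR-15b (r = 0.70, rho = 0.50). Without SH3 and UH1 the values were 0.56, 0.30 and 0.24. Between members, r was 0.18 for bta-miR-21-5p with bta-miR-378, 0.03 for bta-miR-21-5p with bta-miR-224 and 0.26 for bta-miR-378 with bta-miR-224, so that the 3 did not move together.

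A wider list of 26 other miRNAs studied in granulosa or luteal cells gave the surroundings of the members. All 26 were listed, 24 had a read, and 18 were detected in at least 1 group. miR-503-5p and miR-96 were at 0 in all libraries. In UH vs. UL, 0 of 18 were called by limma, beside 2.64% of all miRNAs tested. In SH vs. SL, 1 of 17 was called, beside 5.47% of all, namely miR-17-5p of the growth-promoting miR-17-92 cluster, lower by a log2 fold change of -1.87 (SE 0.70, adjusted P = 0.667). In SH vs. UH, 2 of 16 were called, beside 5.66% of all, miR-17-5p lower (-1.80, SE 0.81) and miR-199a-3p higher (1.998, SE 0.70), both with an adjusted P of 0.735. In SL vs. UL, 1 of 18 was called, beside 2.34% of all, miR-182 (-1.66, SE 0.60, adjusted P = 0.701), a miRNA of the miR-183 cluster with 11 reads in all. In S vs. U over all heifers, 3 of 18 were called, beside 5.46% of all, miR-199a-3p higher (1.56) and miR-20a (-1.33) and miR-182 (-1.11) lower. In the interaction 1 of 18 was called, beside 5.04% of all, miR-17-5p (-2.18). None of these calls had an adjusted P below 0.05. The median log2 fold change of the list was -0.32 in UH vs. UL, -0.24 in SH vs. SL, -0.08 in SH vs. UH, -0.06 in SL vs. UL, -0.13 in S vs. U and 0.18 in the interaction. Over all miRNAs tested it was 0.04, -0.08, -0.14, -0.07, -0.13 and -0.01 in the same order.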

How the data were processed

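Small RNA libraries were made from plasma EV-RNA, isolated with an affinity spin column kit, using a kit with unique molecular identifiers (UMIs). The authors trimmed adapters and collapsed reads by UMI with Cutadapt. Mapping to UMD3.1 was done with Bowtie2 2.2.2. The authors then annotated perfect matches against miRBase release 21 and tested with edgeR after TMM scaling. The deposited values are a score: tags per 1000000 mapped reads, which the authors cut to whole numbers. The number of sample columns left unused was 0. Each value is the whole part of reads times the step of its library (4.48 to 7.93 tags per 1000000 for 1 read), which gave back whole reads for 100% of values. A count model for differences between groups, such as that of edgeR, was not run, because the deposited unit is normalized and truncated. The recovered reads were still used for limma voom, for the counting intervals and for the comparison of spread with counting error.

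Reads were brought to the mean depth of the 12 libraries with TMM factors (trims of 30% and 5%), for which the published method was coded anew. limma 3.58.1 in R 4.3.3, with a trended empirical Bayes step, was fitted to log2(normalized reads + 1) on the whole table, with only the groups compared in a pairwise fit. A miRNA entered a fit if 2 or more of the 3 libraries in a group held a read of it, and tests were two-sided. The scripts were tested on simulated data. Tables were made in Python 3.11.15 (pandas 2.3.3, numpy 2.4.6, scipy 1.17.1) and figures with matplotlib 3.10.9.

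The groups and replicate numbers were taken from the sample labels. Within a group, each library is from another heifer. That a U and an S library with the same number come from the same heifer rests on that number and on the study's sampling of the same heifers in both cycles. Correlations of deviations from group means between them were 0.05, 0.21 and 0.13 (UH with SH) and 0.10, 0.06 and -0.05 (UL with SL). All 7 members were named, with their relatives, the 3 miRNAs most like each detected member and those called in the wider list. The members, lists and tests were chosen with earlier results of these data known. Alternatives were other size factors, filters, pseudocounts, limma settings, limma voom, the replicate block and leaving out each library. The exact sign-flip test was added after seeing the data.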

Additional observations from a re-analysis of the deposited data

How the results depend on the processing

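No member was called under any alternative of limma on log2 values. With limma voom 1 member was called in SH vs. UH (bta-miR-224, log2 fold change 1.91), beside 17 of all 212 miRNAs tested. With the replicate block, 0 members were called in each of the 6 comparisons, the value of bta-miR-224 in SH vs. UH was 1.49 (SE 0.80, adjusted P = 0.645 by limma), and no call changed. The block was the heifer for comparisons between cycles. In UH vs. UL and SH vs. SL it was only the number, which different heifers share. Of 313 alternative values of a member's log2 fold change, 289 kept their direction and side of the threshold, 23 changed sign and 1 passed the threshold. Changing the filter, the mean-variance trend, the block or the groups in the fit cannot move a member's estimate, nor can the sign-flip test. Part of the 289 therefore kept their direction by construction. With library sizes without TMM, bta-miR-378 was at -0.10 in SH vs. SL and bta-miR-224 at -0.0054 in SL vs. UL, and the median of all miRNAs in SH vs. SL moved from -0.08 to -0.23. With median-of-ratios size factors, bta-miR-21-5p was at 0.0089 in SH vs. UH. Leaving out each library in turn gave, for bta-miR-21-5p, -0.17 to 0.49 in UH vs. UL, -0.51 to 0.21 in SH vs. SL, -0.48 to 0.31 in SH vs. UH, -0.0074 to 0.46 in SL vs. UL, -0.0771 to 0.27 in S vs. U and -0.72 to 0.069 in the interaction. It gave -0.10 to 0.18 for bta-miR-378 in SH vs. SL, and for bta-miR-224 -0.0541 to 0.99 in SH vs. SL and -0.0886 to 0.13 in SL vs. UL. The other ranges of these members kept their sign. Apart from the library left out, the cause of these changes was not tested. Requiring 5 reads in 2 of 3 libraries left 2 members detected in SL in place of 4, 3 in UL in place of 4, and 2 in each of UH and SH in place of 3, so that L and H were level in the S cycle. A minimum of 10 reads removed bta-miR-224 and bta-miR-132 from every fit and bta-miR-378 from SH vs. SL and SH vs. UH.

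The count of all miRNAs called ranged over the alternatives from 2 to 10 in UH vs. UL, 5 to 34 in SH vs. SL, 6 to 24 in SH vs. UH, 0 to 15 in SL vs. UL, 4 to 16 in S vs. U and 4 to 21 in the interaction. On the deposited scale, relative to all mapped reads, the mean of bta-miR-21-5p in UL was 295 in place of 331 reads, and the order of the superstimulated libraries by level changed for bta-miR-21-5p, bta-miR-378 and bta-miR-224, with SH3 again highest in bta-miR-224. Depth limits every member but bta-miR-21-5p, since each of the others had 4 reads or fewer in at least 1 library.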
